A study of Mus musculus with 6 samples.

Results

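The epithelial chemokines described here are the 9 genes Cxcl1, Cxcl2, Cxcl5, Cxcl10, Cxcl16, Ccl20, Ccl25, Ccl28 and Cx3cl1, chosen by name, and all 9 were found among the 21397 genes of the deposited expression table. They were measured in small intestinal organoids grown from Fpr2f/f mice, which carry floxed Fpr2 alleles. No Cre is named for these organoids in the labels, so both groups share this genotype. Organoids were exposed for 5 days to MMK-1, a synthetic peptide that activates the receptor FPR2, while the Control group received only the vehicle, 0.1% DMSO. The protocol text gives the dose of MMK-1 as 1 μmol/L, whereas the treatment label reads 1 mM, and the protocol's dose was taken here. There were 3 libraries in each group. The study states that the organoids of a sample were derived from 3 mice, and its methods describe the mice of all experiments as young adults matched for age and sex. Its statistics section describes the data in general as coming from at least 3 independent experiments. Nothing states that the 3 samples of a group here came from separate sets of mice. The p-values therefore measure only the spread between these samples, which may be technical.

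Chemokines are small secreted proteins that bind G protein-coupled receptors and steer the migration of leukocytes. Some are made by the resting gut epithelium and set the homing of lymphocytes, such as CCL25, which attracts CCR9-bearing T cells to the small intestine, and CCL28, which attracts CCR10-bearing IgA plasmablasts to mucosal surfaces. Others are induced by microbial products and cytokines, such as the neutrophil attractants CXCL1, CXCL2 and CXCL5 and the interferon-inducible CXCL10. CX3CL1 and CXCL16 are unusual in being made as membrane proteins with a mucin-like stalk, from which the chemokine can be shed. Organoids are grown as epithelium without added leukocytes, the cells that carry most chemokine receptors, so what was measured is the supply of ligand transcripts and not a response of migrating cells.

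Expression was given as FPKM, in which the fragments of a gene are scaled by gene length and library total, and which allows levels of different genes to be compared. The libraries held between 35512739 and 37537463 fragments, and the fragments behind each FPKM value could be recovered as whole numbers. Differences were tested with limma on log2(FPKM + 1) in 10551 genes whose mean FPKM was 1 or more, and p-values were adjusted by the Benjamini-Hochberg method over all of these genes. Most genes differed in this experiment, with 73.2% called at the adjusted p threshold of 0.05. Over all genes tested, the log2 fold changes had a median of 0.13, and 0.06 after scaling by the upper quartile. MMK-1 replicate 3 stood apart from MMK-1 replicates 1 and 2, with a chi-square per degree of freedom of 36.6 and 31.3 against them, while replicates 1 and 2 gave 3.57 and pairs of Control libraries gave 2.83 to 4.97. Values without this library are given beside the results whose calls or counts it moved. The epithelial marker Epcam had a mean FPKM of 392 in Control and 391 in MMK-1 organoids, and the leukocyte marker Ptprc had at most 3 fragments in every library.

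Of the 9 chemokines, 5 had a mean FPKM of at least 1 and entered the test, and each of these was above 1 in every library. All 5 were called at the adjusted p threshold of 0.05 with limma. Ccl25, Cx3cl1 and Ccl20 were lower with MMK-1, against 24.7% of all genes tested that were called lower. Ccl28 and Cxcl16 were higher, against 48.5% of all genes tested that were called higher. By the threshold of a 2-fold change with an unadjusted p up to 0.05, Ccl25 and Cx3cl1 were called downregulated, as were 3.65% of all genes tested, and no member was called upregulated, against 3.39% of all genes. Control and MMK-1 values did not overlap for any of the 5, which was also the case for 76.8% of all genes tested, and 26.3% of all genes tested were lower without overlap, as were Ccl25, Cx3cl1 and Ccl20. For each of the 5 genes the exact two-sided permutation p was 0.1, the smallest that 3 libraries against 3 allow.

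**Figure D1:**
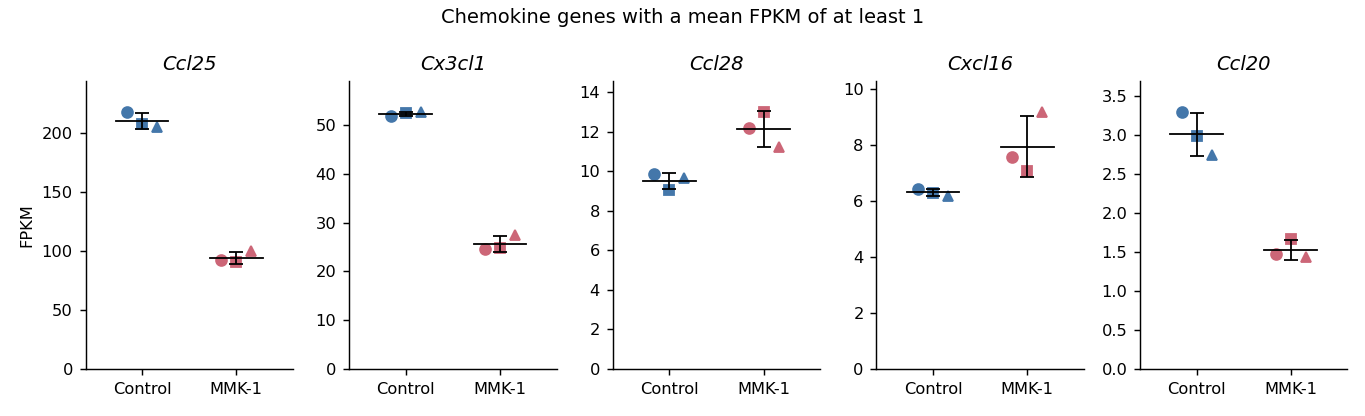
FPKM (vertical axes, starting at 0, a separate scale for each gene) of the 5 chemokine genes whose mean FPKM was 1 or more in the 3 Control and 3 MMK-1 libraries; circles, squares and triangles are replicates 1, 2 and 3, long lines are means and bars are SD. Ccl25, Cx3cl1 and Ccl20 lay lower and Ccl28 and Cxcl16 higher in every MMK-1 library than in any Control library.

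Ccl25 (NCBI gene 20300) was the most abundant of the 9 transcripts in both groups. Its FPKM was 218, 208 and 205 in Control and 92.4, 90.5 and 100 in MMK-1 libraries. Every MMK-1 library thus lay far below the lowest Control library, and MMK-1 replicate 3 was the highest of its group. The mean was 211 ± 6.81 (SD, n = 3) in Control and 94.5 ± 5.27 (SD, n = 3) in MMK-1 organoids, 2.23-fold lower. The log2 fold change was -1.15 (standard error 0.0493, limma adjusted p = 1.7e-07). These values rested on 23559 to 25106 fragments in Control and 9989 to 11459 in MMK-1 libraries. In the order of all genes by mean FPKM, Ccl25 moved from rank 314 to rank 653. The gene lies on chromosome 8 of GRCm38 (4325210 to 4360020, plus strand, GENCODE vM21), has 10 annotated transcripts and overlaps Elavl1 on the other strand. Whether counting used the strand is not given in the sources used here, so fragments of this overlap cannot be told apart. Elavl1 itself moved the opposite way, from 10.3 ± 0.265 to 12.9 ± 0.293 FPKM (SD, n = 3; log2 fold change 0.30, limma adjusted p = 0.00027).

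Ccl28 (NCBI gene 56838), the other homing chemokine of mucosal lymphocytes, moved the other way. Its FPKM was 9.84, 9.06 and 9.67 in Control and 12.2, 13.0 and 11.2 in MMK-1 libraries. The groups did not overlap, with MMK-1 replicate 3 nearest to the Control libraries. The mean rose from 9.52 ± 0.409 to 12.1 ± 0.898 (SD, n = 3), which is 27.5% higher, with a log2 fold change of 0.32 (standard error 0.0602, limma adjusted p = 0.0013). Relative to the median of all genes, this rise was 0.19 on the log2 scale. The number of fragments was 1451 to 1572 in Control and 1780 to 1997 in MMK-1 libraries. Ccl28 lies on chromosome 13 (119623819 to 119654359, plus strand) and overlaps no other gene of the annotation.

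The relation of these homing chemokines was also compared within each library, where the scaling between libraries cancels. The FPKM of Ccl25 was 22.2, 23.0 and 21.2 times that of Ccl28 in Control and 7.60, 6.95 and 8.94 times in MMK-1 libraries. The ratio thus shifted by -1.51 on the log2 scale (standard error 0.112), and the groups did not overlap (exact two-sided permutation p = 0.1, adjusted p = 0.14 over 10 pairs of genes, for which 0.1 is the smallest unadjusted value).

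Cx3cl1 (NCBI gene 20312) encodes fractalkine, the membrane-bound ligand of CX3CR1 on mononuclear phagocytes, and was the second most abundant of the 9. Its FPKM was 51.9, 52.4 and 52.7 in Control and 24.6, 24.8 and 27.4 in MMK-1 libraries. The Control libraries were nearly alike, and all MMK-1 libraries were far below them. The mean was 52.3 ± 0.398 (SD, n = 3) in Control and 25.6 ± 1.55 (SD, n = 3) in MMK-1 organoids, 2.04-fold lower, with a log2 fold change of -1.0 (standard error 0.0487, limma adjusted p = 3.4e-07). The number of fragments was 6111 to 6192 in Control and 2748 to 3201 in MMK-1 libraries, and the rank of the gene moved from 1241 to 2544. On the log2 scale the value lies on the edge of the fold change threshold, and it lay between -1.05 and -0.98 when each library was left out in turn. Cx3cl1 lies on chromosome 8 (94772009 to 94782427, plus strand).

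Cxcl16 (NCBI gene 66102) encodes the other membrane-bound chemokine, the ligand of CXCR6 on T and NKT cells. Its FPKM was 6.44, 6.30 and 6.18 in Control and 7.58, 7.07 and 9.18 in MMK-1 libraries. The groups did not overlap, and MMK-1 replicate 3 was well above the other MMK-1 libraries. The mean was 6.31 ± 0.128 (SD, n = 3) and 7.94 ± 1.10 (SD, n = 3), or 25.9% higher with MMK-1. The log2 fold change was 0.28 (standard error 0.0812, limma adjusted p = 0.012), or 0.15 above the median of all genes. Without MMK-1 replicate 3 the log2 fold change of Cxcl16 was 0.19 (standard error 0.0457, limma adjusted p = 0.006), or 0.07 above the median of all genes in that fit. The number of fragments was 345 to 360 in Control and 379 to 509 in MMK-1 libraries. Cxcl16 lies on chromosome 11 (70453983 to 70459984, minus strand) and overlaps Zmynd15 on the other strand, which had 31 fragments in all Control and 25 in all MMK-1 libraries. Between the membrane-bound chemokines, the FPKM of Cxcl16 was 0.124, 0.120 and 0.117 times that of Cx3cl1 in Control and 0.308, 0.284 and 0.335 times in MMK-1 libraries, a log2 shift of 1.36 (standard error 0.0720, exact permutation p = 0.1, adjusted p = 0.14 over 10 pairs).

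Ccl20 (NCBI gene 20297) is the ligand of CCR6 on B cells, dendritic cells and Th17 cells and is made by the follicle-associated epithelium over lymphoid follicles. Its FPKM was 3.30, 2.99 and 2.74 in Control and 1.47, 1.67 and 1.44 in MMK-1 libraries, from 99, 90 and 82 fragments and 42, 48 and 43 fragments. All MMK-1 libraries were below all Control libraries. The mean fell from 3.01 ± 0.281 to 1.53 ± 0.120 (SD, n = 3), 1.97-fold lower. The log2 fold change was -0.66 (standard error 0.0698, limma adjusted p = 3.6e-05) on the scale of log2(FPKM + 1), which understates the change of a gene at this level. With a pseudocount of 0.1 it was -0.93 (limma adjusted p = 3.7e-05), against a log2 ratio of the means of -0.98. The ratio of group means was at or below that of Ccl20 in 4.86% of all genes tested. Ccl20 lies on chromosome 1 (83116766 to 83119167, plus strand).

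The 3 chemokines that fell, by 2.23-fold, 2.04-fold and 1.97-fold, were also set against each other within each library. The FPKM of Cx3cl1 was 15.7, 17.5 and 19.3 times that of Ccl20 in Control and 16.7, 14.9 and 19.0 times in MMK-1 libraries, a log2 shift of -0.06 (standard error 0.131, exact permutation p = 0.7). Ccl20 relative to Ccl25 shifted by 0.18 (standard error 0.116, exact permutation p = 0.2), and these groups overlapped too. Cx3cl1 relative to Ccl25 went from 0.238, 0.251 and 0.257 to 0.266, 0.274 and 0.273, a shift of 0.13 (standard error 0.0357) with no overlap (exact permutation p = 0.1). The 2 chemokines that rose were not separated from each other either, since the ratio of Cxcl16 to Ccl28 was 0.655, 0.695 and 0.639 in Control and 0.623, 0.542 and 0.817 in MMK-1 libraries (log2 shift -0.02, standard error 0.177, exact permutation p = 0.8). For the pairs whose ratios overlapped between the groups, the standard errors leave room for differences in either direction, so these genes are not shown to have moved alike. Each pair of a gene that fell with a gene that rose had ratios without overlap between the groups, which restates the calls of the single genes. These pairs, and Cx3cl1 with Ccl25, each had an exact permutation p of 0.1 and an adjusted p of 0.14 over the 10 pairs. No share over all pairs of genes was computed.

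**Figure D2:**
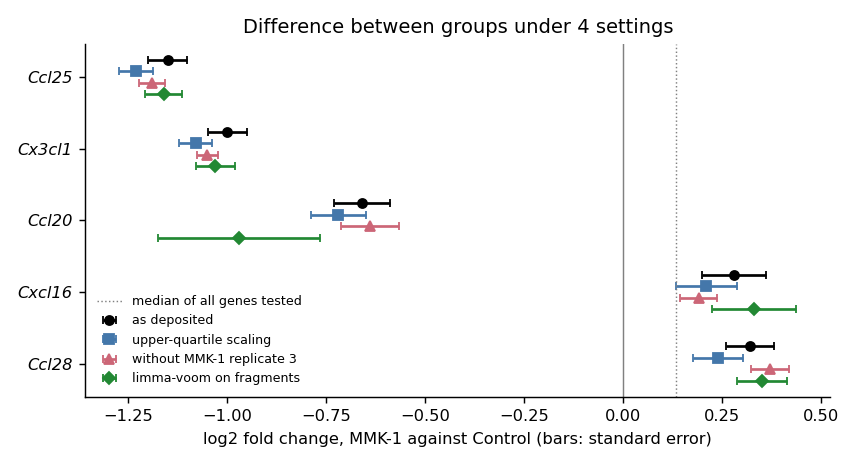
log2 fold change of MMK-1 against Control (horizontal axis, bars are standard errors) of the 5 tested chemokine genes as deposited, after upper-quartile scaling, without MMK-1 replicate 3, and by limma-voom on the recovered fragments; the dotted line is the median of all genes tested, 0.13. Each gene kept its side of 0 in all of these, and Ccl20 moved most, from -0.66 to -0.97 with limma-voom.

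The remaining 4 members, Cxcl1, Cxcl2, Cxcl5 and Cxcl10, are inducible chemokines and were near the limit of detection, so their values are given as fragments. A count of 0 allows up to 3 fragments in a library, and intervals and limits of this kind cover counting error only. These genes were read from a limma fit over the 20676 genes above 0 with a pseudocount of 0.1, in which 15.3% of genes were called lower and 28.3% higher at the adjusted p threshold of 0.05.

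Cxcl10 (NCBI gene 15945), the interferon-inducible ligand of CXCR3, had 11, 15 and 4 fragments in Control and 2, 2 and 3 in MMK-1 libraries. The groups did not overlap, but Control replicate 3 was within 1 fragment of MMK-1 replicate 3. Over the group totals of 30 and 7 fragments, the level with MMK-1 was 0.241 times that of Control (95% exact interval 0.0895 to 0.561). The log2 fold change was -1.03 (standard error 0.313, limma adjusted p = 0.038). This call was lost with a pseudocount of 1 (adjusted p = 0.065) and without any single library other than Control replicate 3 (adjusted p = 0.075 to 0.12), while without Control replicate 3 the log2 fold change was -1.38 (limma adjusted p = 0.0027). Cxcl10 lies on chromosome 5 (92346638 to 92348889, minus strand) and overlaps Art3 on the other strand, which had 1 fragment in all libraries together.

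The neutrophil attractants, which signal through CXCR2, were barely detected. Cxcl1 (NCBI gene 14825) had 3, 1 and 0 fragments in Control and 6, 4 and 0 in MMK-1 libraries, so the groups overlapped, and the ratio of 2.59 had a 95% exact interval of 0.746 to 11.3 (log2 fold change 0.45, limma adjusted p = 0.44). With each library left out in turn, the log2 fold change of Cxcl1 was 0.15 to 0.88, the highest without MMK-1 replicate 3, which had 0 fragments (limma adjusted p = 0.061). Cxcl2 (NCBI gene 20310) had 3, 1 and 0 fragments against 0, 1 and 1. Cxcl5 (NCBI gene 20311) had 1 fragment in Control replicate 3 and 1 in MMK-1 replicate 1, and none in the other libraries. No difference of Cxcl2 or Cxcl5 was detectable at this depth, and no fold change is read from them because both groups were at or under the limit. These 3 genes lie within one cluster on chromosome 5, Cxcl5 at 90759360 to 90761624, Cxcl1 at 90891241 to 90893115 and Cxcl2 at 90903871 to 90905938, all on the plus strand.

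**Figure D3:**
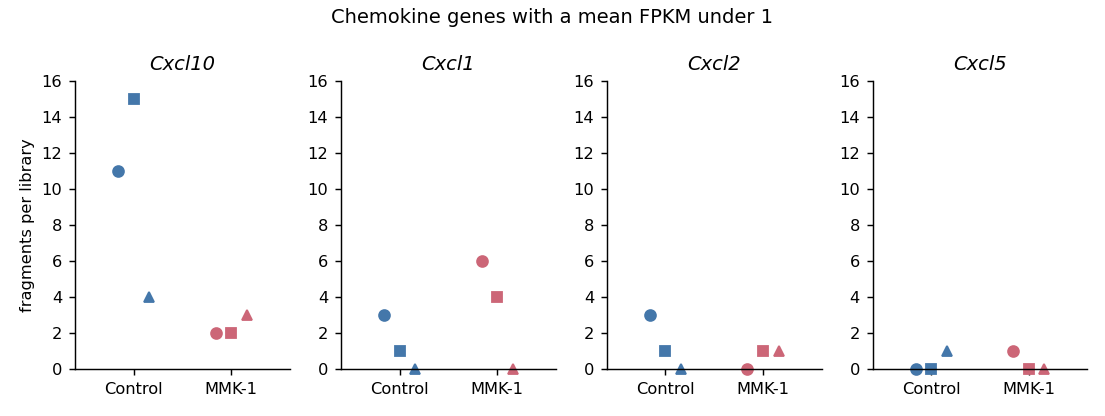
Fragments per library (vertical axis, starting at 0, the same scale in each panel) of the 4 chemokine genes with a mean FPKM under 1; circles, squares and triangles are replicates 1, 2 and 3. Cxcl10 had 4 to 15 fragments in Control and 2 to 3 in MMK-1 libraries, and the other genes had at most 6 fragments in any library.

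Inducible chemokine genes are known for sites of NF-kappaB, interferon-regulated factors and AP-1 close to their start, and the members were compared on this feature, which their choice did not use. The 250 bases before the RefSeq start were searched on both strands for the kappaB letters, GGGA and TTCC with any 2 bases between them, for the interferon-stimulated response element, GAAA repeated after any 2 bases, and for the AP-1 letters TGANTCA, where N is any base. Windows were found for 7 of the 9 members, and Ccl25 had windows at 2 starts. Cxcl5 and Cxcl16 had none. The kappaB letters were found upstream of Cxcl1, Cxcl2 and Cxcl10 and in 1.21% of all 32851 windows. Cxcl10 also held the letters of the response element, found in 2.98% of all windows, and those of AP-1, found in 6.75%. None of the motifs was in the windows of Ccl20, Ccl25, Ccl28 or Cx3cl1. A match is a description of letters and not a site, and a missing match says nothing of whether a factor binds.

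The sequences of the kappaB-bearing windows are shown because they are the only windows of members with matched letters. All 3 genes were near the limit of detection, as was Cxcl5, which had no window. They come from RefSeq on GRCm38.p6, read 5′ to 3′ on the strand of the gene and end before the first annotated exon base, with matched letters in capitals. In Cxcl1 and Cxcl2 the capitals cover matches on both strands that overlap, at -71 to -61 and -97 to -87 from the start. In Cxcl10 the capitals are, from left to right, the response element at -213 to -204, the kappaB letters at -159 to -150 and the AP-1 letters at -74 to -68.
Cxcl1, chr5:90890995-90891240, plus strand: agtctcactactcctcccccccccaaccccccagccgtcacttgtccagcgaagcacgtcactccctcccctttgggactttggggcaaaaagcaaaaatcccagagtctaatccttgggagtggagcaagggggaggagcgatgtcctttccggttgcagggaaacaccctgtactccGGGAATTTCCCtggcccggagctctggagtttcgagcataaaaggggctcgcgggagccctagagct
Cxcl2, chr5:90903649-90903870, plus strand: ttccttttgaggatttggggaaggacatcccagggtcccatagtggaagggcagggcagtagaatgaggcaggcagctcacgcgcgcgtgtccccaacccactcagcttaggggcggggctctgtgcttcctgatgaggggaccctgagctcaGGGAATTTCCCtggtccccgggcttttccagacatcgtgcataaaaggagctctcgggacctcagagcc
Cxcl10, chr5:92348890-92349139, minus strand: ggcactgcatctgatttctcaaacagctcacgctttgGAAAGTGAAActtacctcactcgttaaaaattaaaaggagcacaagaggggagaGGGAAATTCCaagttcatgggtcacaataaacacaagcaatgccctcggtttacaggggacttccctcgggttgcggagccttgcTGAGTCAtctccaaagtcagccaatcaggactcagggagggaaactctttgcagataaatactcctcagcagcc

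The upstream sequences of Ccl25, Cx3cl1 and Ccl20, the tested members that fell with MMK-1, hold none of these letters and are shown without capitals. Cxcl10, which was also called lower in its fit, holds all 3 motifs. That of Ccl25 is from the downstream of its 2 RefSeq starts, and that of Cx3cl1 is shorter because the annotation places exon bases of another transcript in the window.
Ccl25, chr8:4349338-4349587, plus strand: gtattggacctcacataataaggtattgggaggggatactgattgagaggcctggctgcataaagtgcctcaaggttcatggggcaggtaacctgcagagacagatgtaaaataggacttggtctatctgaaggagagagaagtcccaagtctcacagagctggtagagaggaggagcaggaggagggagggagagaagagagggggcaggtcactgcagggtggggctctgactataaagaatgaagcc
Cx3cl1, chr8:94771930-94772008, plus strand: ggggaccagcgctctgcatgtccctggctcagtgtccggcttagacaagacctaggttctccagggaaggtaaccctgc
Ccl20, chr1:83116516-83116765, plus strand: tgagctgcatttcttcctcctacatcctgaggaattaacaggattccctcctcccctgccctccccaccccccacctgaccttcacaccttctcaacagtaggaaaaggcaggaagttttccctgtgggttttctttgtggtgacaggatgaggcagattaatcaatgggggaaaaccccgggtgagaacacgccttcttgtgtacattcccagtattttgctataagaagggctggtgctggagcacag

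Since FPKM values are per length, the 9 transcripts can be added to give the chemokine output of a library at the level of RNA. The sum was 290, 279 and 277 FPKM in Control and 139, 137 and 150 FPKM in MMK-1 libraries. The mean sum fell from 282 ± 7.14 to 142 ± 6.89 (SD, n = 3), with no overlap (exact two-sided permutation p = 0.1, the smallest possible). Ccl25 made up most of the sum in both groups, with 74.7 ± 0.524% in Control and 66.6 ± 0.583% in MMK-1 organoids (SD, n = 3). The share of Ccl28 went from 3.38 ± 0.128% to 8.59 ± 1.01% and that of Cxcl16 from 2.24 ± 0.0175% to 5.58 ± 0.5% (SD, n = 3, exact permutation p = 0.1 for each). The shares of Cx3cl1 (18.6 ± 0.602% and 18.1 ± 0.266%, exact permutation p = 0.3) and Ccl20 (1.06 ± 0.0736% and 1.08 ± 0.125%, exact permutation p = 1) differed by less than the spread between libraries. The order of the genes by level, Ccl25, Cx3cl1, Ccl28, Cxcl16 and Ccl20, was the same in both groups, and no neighbours in this order overlapped in either group.

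**Figure D4:**
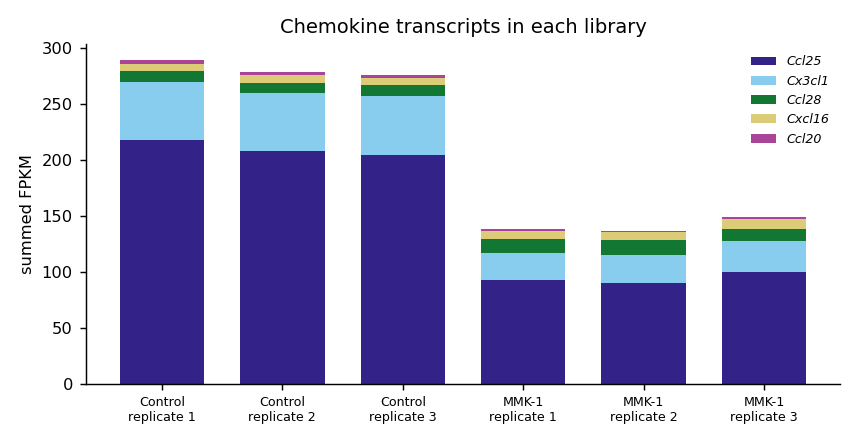
Summed FPKM of the chemokine genes (vertical axis, starting at 0) in each of the 6 libraries, with 1 colour for each of the 5 genes whose mean FPKM was 1 or more; the other 4 genes are too low to be seen. The sum was 277 to 290 in Control and 137 to 150 in MMK-1 libraries, and Ccl25 was the largest part of each bar.

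Cell type markers moved between the groups as well, and their counts are set against the 48.5% of all genes called higher and the 24.7% called lower. In bulk samples, fewer cells of a type and less RNA per cell cannot be told apart. Of 12 enterocyte markers, 11 were lower and 1, Fabp1, was higher at the adjusted p threshold of 0.05 (a call lost after upper-quartile scaling), and the log2 fold changes had a median of -1.37. Their summed FPKM was 9883 to 9988 in Control and 5495 to 5906 in MMK-1 libraries. The log2 fold changes of Ccl25 and Cx3cl1 lay in the middle of this list, with 6 of the 12 markers lower than either, and 9 of the 12 were lower than that of Ccl20, or 7 of the 12 with a pseudocount of 0.1 or with limma-voom. Of the markers of the follicle-associated epithelium and M cells, the cells known for Ccl20, the summed FPKM was 12.0 to 12.2 in Control and 38.3 to 42.3 in MMK-1 libraries. No count of this list is read, since Tnfaip2 (0.891 and 3.53 FPKM) and Tnfrsf11a (0.846 and 2.91 FPKM) passed the filter only through the MMK-1 group. The summed FPKM includes both genes, and most of its rise is that of Marcksl1. It is therefore not read as a rise of these cells. Marcksl1 of that list rose from 4.28 ± 0.574 to 23.3 ± 1.07 FPKM (SD, n = 3; log2 fold change 2.21, limma adjusted p = 6.4e-08), while Spib, the transcription factor of M cells, had 83 fragments in all Control and 96 in all MMK-1 libraries and Sox8 had 0 and 3. All 7 Paneth cell markers and all 6 stem cell markers tested were higher, with medians of 1.70 and 1.69. The part of these shifts in the chemokine differences was not tested.

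Markers of leukocytes were at low levels in both groups. Of 13 immune cell markers, 11 were listed and 8 of these had at most 3 fragments in every library. The macrophage-associated Cd68 went from 3.17 ± 0.4 to 1.15 ± 0.403 FPKM (SD, n = 3; log2 fold change -0.96, limma adjusted p = 0.00015). Itgam had 2.36 ± 0.0677 FPKM in Control and 0.938 ± 0.135 FPKM in MMK-1 libraries (SD, n = 3) and passed the filter only through the Control group, so its call is not read. Csf1r had 66 fragments in all Control and 3 in all MMK-1 libraries. The summed FPKM of the list was 5.58 to 6.31 in Control and 1.92 to 3.02 in MMK-1 libraries. Most of this sum is Cd68 and Itgam, so it is not read as a fall of the other markers. The part of these markers in the chemokine differences was not tested. No fibroblast or endothelial marker reached a mean FPKM of 1, and none had more than 28 fragments in a library.

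Of the receptors chosen for the 9 members, transcripts could be read for those of Ccl25, Ccl28 and Cx3cl1, and they were at or under the limit of detection. Ccr9, the receptor of CCL25, had 0, 0 and 2 fragments in Control and 1, 1 and 0 in MMK-1 libraries. Ccr10, a receptor of CCL28, had 1 fragment in MMK-1 replicate 1 alone, and Cx3cr1 had 1 in Control replicate 2 alone. Of all 13 chemokine receptor genes listed, most of which bind other ligands, 12 had at most 3 fragments in every library, and the exception was Ccrl2, an atypical receptor, with 2, 7 and 11 fragments in Control and 4, 24 and 11 in MMK-1 libraries, which overlap. Cxcr2, Cxcr3, Cxcr6, Ccr6, Ccr3 and Ackr1 were not analysed here.

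Other chemokine ligands were low, with a summed FPKM of 4.24 to 4.70 in Control and 4.54 to 4.83 in MMK-1 libraries. Of 30 further ligands, 17 were listed, 10 of them had at most 3 fragments in every library and 3 were tested. Ccl6 had FPKM values of 1.15, 1.28 and 1.45 in Control and 1.63, 1.43 and 1.95 in MMK-1 libraries (log2 fold change 0.22, limma adjusted p = 0.047). The groups overlapped (exact permutation p = 0.2), and the call was lost after upper-quartile scaling and without MMK-1 replicate 3. Ccl9 and Ccl27a were not called, with log2 fold changes of 0.07 and 0.11. Ccl24, an eosinophil attractant, had 14, 13 and 9 fragments in Control and 3, 1 and 0 in MMK-1 libraries, a ratio of 0.115 (95% exact interval 0.0297 to 0.321), and was named after its values were seen.

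Among 5 genes of proteases that process chemokines and their cofactors, 2 were higher and 1 was lower, near the 48.5% and 24.7% of all genes tested that were called higher and lower, and the log2 fold changes had a median of 0.12 against 0.13 over all genes. Adam10 and Adam17 encode the metalloproteases that shed CX3CL1 and CXCL16 from the membrane. Adam10 had 24.5, 24.2 and 23.1 FPKM in Control and 36.4, 37.5 and 31.8 FPKM in MMK-1 libraries, a log2 fold change of 0.54 (standard error 0.0634, limma adjusted p = 7.6e-05). Adam17 had 6.85, 6.87 and 7.10 FPKM in Control and 8.77, 9.19 and 9.30 FPKM in MMK-1 libraries, a log2 fold change of 0.34 (standard error 0.0455, limma adjusted p = 0.00015). Both were above every Control library in each MMK-1 library. Dpp4 encodes a brush-border peptidase that trims the amino terminus of several chemokines, CXCL10 among them. Its FPKM was 89.7, 87.6 and 89.3 in Control and 27.0, 27.2 and 27.3 in MMK-1 libraries, 3.27-fold lower (log2 fold change -1.67, standard error 0.0360, limma adjusted p = 4.2e-09). Rhbdf1 and Rhbdf2, whose products escort ADAM17 to the cell surface, were not called, with log2 fold changes of 0.12 and -0.01.

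Genes of the pathways that induce chemokines were called in both directions, in shares to be read against the 48.5% of all genes called higher and 24.7% called lower. In the NF-kappaB list, 8 of 19 genes tested were higher and 5 lower, which is near those shares, and the median log2 fold change was 0.12 against 0.13 over all genes. After upper-quartile scaling 7 were higher and 7 lower, while over all 10551 genes tested 4395 were higher and 3291 lower. Without MMK-1 replicate 3, 7 genes of this list were higher and 4 lower, against 5143 and 2960 of all genes in that fit. List counts under these settings below are to be read against these numbers. The most raised were Bcl3, an atypical inhibitor of NF-kappaB that acts in the nucleus (0.78, adjusted p = 8.3e-06), Nfkbia, the classical inhibitor (0.50, adjusted p = 0.00023), and Chuk, a kinase of the inhibitor (0.44, limma adjusted p = 0.00025). The most lowered were Tnip1 (-0.64, adjusted p = 3e-05), Birc3 (-0.34, adjusted p = 0.00015) and Nfkbie (-0.19, limma adjusted p = 0.042, a call lost without MMK-1 replicate 3). Among receptors and adaptors of cytokines known to induce epithelial chemokines, 15 of 18 had a mean FPKM of at least 1 in both groups. Of these, 4 were higher and 8 lower, the median was -0.13, and 2 were higher and 9 lower after upper-quartile scaling. Without MMK-1 replicate 3, 4 were higher and 9 lower. Tnfrsf1b, the second TNF receptor, had 0.531 ± 0.0879 FPKM in Control and 1.6 ± 0.212 in MMK-1 libraries (SD, n = 3) and passed the filter only through the MMK-1 group, so its call is not read. The adaptor Traf6 (0.58, adjusted p = 7.1e-06) rose, as did the kinase Irak1 (0.26, limma adjusted p = 0.0019). Il10rb, a chain shared by receptors of IL-10, IL-22 and interferon lambda (-0.72, adjusted p = 9.5e-07), Il17ra (-0.54, adjusted p = 0.00015) and Tnfrsf1a, the main TNF receptor (-0.47, limma adjusted p = 9.4e-06), fell.

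Irf7 and Irf9, factors of the interferon response, were among the genes that fell. The part of the STAT and IRF genes in the Cxcl10 difference was not tested. Irf7 had 21.5, 18.9 and 21.3 FPKM in Control and 4.5, 5.09 and 5.28 FPKM in MMK-1 libraries, a log2 fold change of -1.85 (standard error 0.0688, limma adjusted p = 7.6e-08). Irf9 fell from 8.92 ± 0.0692 to 3.92 ± 0.536 FPKM (SD, n = 3; log2 fold change -1.02, limma adjusted p = 4.9e-06). Of the 9 STAT and IRF genes analysed, 4 were lower and 3 higher, against 24.7% and 48.5% of all genes tested, and the log2 fold changes had a median of -0.13. After upper-quartile scaling 6 were lower and 2 higher, while of all 10551 genes tested 3291 were lower and 4395 higher. Without MMK-1 replicate 3, 5 of them were lower and 3 higher. The genes that rose did so by at most 0.20, which was the value of Irf3.

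Chemokine transcripts are bound by proteins that set their decay or stability, some of them at AU-rich elements. Of 8 such factors tested, 6 were higher, against 48.5% of all genes tested, and none lower, against 24.7%, with a median of 0.40 on the log2 scale. The list is mixed, since the 6 include Elavl1, whose product is known to stabilise transcripts. Zfp36l2, a member of the tristetraprolin family, rose from 46.0 ± 1.07 to 87.4 ± 4.95 FPKM (SD, n = 3; 0.91, adjusted p = 6e-07), Hnrnpd from 14.4 ± 0.631 to 23.7 ± 1.67 FPKM (SD, n = 3; 0.68, adjusted p = 1.1e-05) and Khsrp from 27.9 ± 0.24 to 40.1 ± 2.93 FPKM (SD, n = 3; 0.51, limma adjusted p = 3.9e-05). Zfp36, which encodes tristetraprolin itself, had a log2 fold change of -0.07 and was not called, but it was called lower after upper-quartile scaling and without MMK-1 replicate 3. Zc3h12a, an endonuclease that cleaves inflammatory transcripts, had 5.70 ± 0.361 and 5.68 ± 0.350 FPKM (SD, n = 3).

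**Figure D5:**
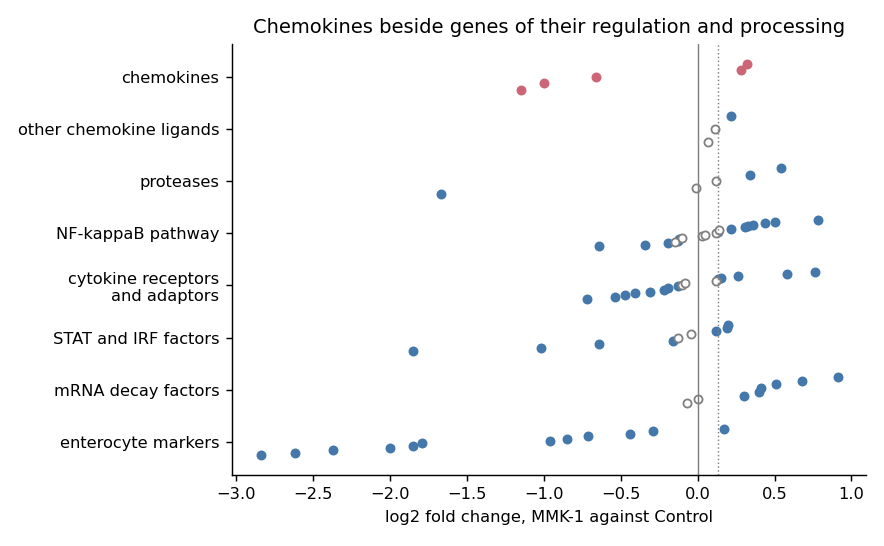
log2 fold change of MMK-1 against Control (horizontal axis) of each tested gene, with the chemokines in the top row and lists of related genes and enterocyte markers below; filled points passed the adjusted p threshold of 0.05, open points did not, and the dotted line is the median of all genes, 0.13. Ccl25, Cx3cl1 and Ccl20 lie left of 0 within the range of the enterocyte markers, -2.84 to 0.17. The row of mRNA decay factors, which includes the stabilising Elavl1, lies mostly right of the dotted line.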

How the data were processed

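RNA-seq of 6 mouse organoid libraries was re-analysed, 3 treated with MMK-1 and 3 with vehicle, grouped by the titles of the samples. Libraries were made with the VAHTS Universal V10 kit. The authors deposited FPKM values per gene, and the submitters' processing notes name HISAT2, HTSeq, R 3.2.0, DESeq2 and mm10, with no roles. The strand setting and the annotation are not given in the sources used here. Within a gene the FPKM values were whole multiples of 1 step per library, so the fragments of all 20676 genes above 0 were recovered within a tolerance of 0.01 of a whole number. A factor shared by every library cannot be told from gene length for genes with few fragments.

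The main test was limma 3.58.1 (trend) in R 4.3.3 on log2(FPKM + 1), with no replicate block. Members under the filter were read from a fit over every gene above 0 with a pseudocount of 0.1, as planned. Scripts were tested on simulated data. Exact permutation tests covered the 20 splits of 6 libraries. Alternatives were upper-quartile scaling, the filter and the pseudocount, a replicate block, leaving out each library and limma-voom on fragments (mean of at least 10). Coordinates are from GENCODE vM21 on GRCm38, and gene names and numbers from the table.

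The 9 members and all gene lists were chosen with earlier results of these data known. All members are named, and from each list the 3 largest changes in each direction among called genes, plus receptors chosen for the members. Epcam, Ptprc, Spib, Sox8, Csf1r, Ccl24, Ccrl2, Rhbdf1, Rhbdf2, Zfp36, Zc3h12a and overlapping genes were named after their values were seen. 1 gene of the STAT and IRF list is not reported here.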

Additional observations from a re-analysis of the deposited data

How the results depend on the processing

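The 5 tested chemokines kept their direction and passed the adjusted p threshold of 0.05 under all alternatives. The numbers of members called were 2 higher and 3 lower throughout, with Cxcl10 a further member called lower over every gene above 0 with a pseudocount of 0.1. With each library left out in turn, the log2 fold changes were -1.19 to -1.12 for Ccl25, -1.05 to -0.98 for Cx3cl1, -0.71 to -0.61 for Ccl20, 0.27 to 0.37 for Ccl28 and 0.19 to 0.36 for Cxcl16. Over all genes, 358 were upregulated and 385 downregulated at a fold change of at least 2. These counts moved to 676 upregulated with a pseudocount of 0.1, to 1097 and 818 over every gene above 0 with that pseudocount, and to 1388 and 899 with limma-voom. With each library left out in turn there were 329 to 426 upregulated and 366 to 399 downregulated genes, 4735 to 5143 higher and 2347 to 2960 lower at the adjusted p threshold of 0.05. Low counts limit Cxcl1, Cxcl2, Cxcl5 and Cxcl10. In fits over every gene above 0, chosen after seeing the data for single libraries, Cxcl10 had -0.23 with a pseudocount of 1, and -0.94, -0.77, -1.38, -1.0, -0.99 and -1.10 without Control replicates 1, 2 and 3 and MMK-1 replicates 1, 2 and 3. Cxcl1 had 0.15 to 0.88 without single libraries and was not called. Cxcl2 turned to 0.06 without Control replicate 1, and Cxcl5 from 0.00 to -0.03 without Control replicate 1 or 2 and -0.07 without MMK-1 replicate 1, none of them called and both genes at or under the limit of detection, so that no fold change is read from these values. The cause was not tested.

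Replicate numbers did not pair the libraries, since the correlations of same-numbered deviations were 0.0253, -0.0400 and 0.0279. A replicate block gave 359 upregulated and 385 downregulated genes, 5024 higher and 2543 lower, and changed no call of a tested chemokine, with log2 fold changes of -1.15 for Ccl25, -1.0 for Cx3cl1, -0.66 for Ccl20, 0.32 for Ccl28 and 0.28 for Cxcl16. Among the lists of other genes, the block dropped the calls of Nfkb1, Relb, Ikbkg, Il22ra1, Irf1 and Il17rb and added that of Nfkbiz, which gave 7 higher and 4 lower in the NF-kappaB list, 4 and 7 among cytokine receptors and adaptors, and 3 and 3 among STAT and IRF genes.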

Other observations

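Marker lists of other epithelial lineages, in which no chemokine of the 9 is a member, gave the following values, to be read against the 48.5% of all genes tested that were called higher, the 24.7% called lower and a median of 0.13 over all genes on the log2 scale. Of 8 goblet cell markers tested, 6 were higher and 2 lower with MMK-1 (median log2 fold change 0.25), led by Spdef, a transcription factor of secretory cells, among the higher and Zg16, a mucus-associated lectin, among the lower. Of 8 enteroendocrine markers, 6 were higher and none lower (median 0.47), led by the hormone gene Cck. After upper-quartile scaling 5 were higher, while 4395 of all 10551 genes tested were. Of 8 tuft cell markers, 2 were tested, and Il17rb was higher and Ltc4s lower, with the call of Il17rb lost after upper-quartile scaling, with a replicate block and without MMK-1 replicate 3. Of 8 general epithelial markers, 2 were higher and 4 lower, with the keratin gene Krt20 and the villus actin-bundling gene Vil1 the most lowered (log2 fold changes -1.52 and -1.21). The part of these shifts in the chemokine differences was not tested.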
